A study of Mus musculus with 14 samples.

Results

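The chemokine ligand genes were the mouse protein-coding genes whose symbol is Ccl or Cxcl followed by a number, together with Ppbp, Pf4, Cx3cl1 and Xcl1. GENCODE release M21 held 39 of them among 21938 protein-coding genes. They were described by the positions of H3K4me1 sites measured by ChIP-seq in NG3 cells, a single clone of immortalized mouse embryo fibroblasts (iMEF-Ash2l fl/fl-Cre-ER). In this clone the endogenous Ash2l had been recombined by Cre-ER, and a lentiviral FKBP-HA2-ASH2L fusion of human ASH2L, which dTAG-13 causes to be degraded, was expressed in its place. The control without dTAG and the cells treated with dTAG for 0.5, 2, 4, 8 or 16 h shared this deletion and this transgene. Each of the 6 conditions had 2 replicates, which gave 12 H3K4me1 libraries, and 2 inputs were sequenced from the control and from the 16 h time point. The table analysed here holds a single set of 160144 sites over all samples, with a chromosome, a start and an end for each. It gives no read count, signal, replicate or time point, so the values below are positions and widths in the pooled set, and no difference between conditions was tested. All conditions but the control were treated with dTAG. The authors report that the sites which gained H3K4me1 after ASH2L loss were nearly all at promoters. Whether a promoter site was present in control cells cannot be read from the pooled set. The depth of the libraries is unknown from this table.

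Chemokines are small secreted proteins that direct the migration of leukocytes through G protein-coupled receptors. The CC and CXC families are told apart by the spacing of their first cysteines, and Xcl1 and Cx3cl1 stand for the 2 small families beside them. Fibroblasts make chemokines that recruit monocytes and neutrophils when NF-kappaB is activated by inflammatory cytokines, interferons induce the ligands of CXCR3, and Cxcl12 is made by stromal cells without such a stimulus. H3K4me1 is deposited by KMT2 complexes, of which ASH2L is a core subunit, and marks enhancers and the flanks of promoters. A promoter is the ± 1 kb around the most upstream annotated TSS, and it was counted as having a site when at least 1 bp overlapped.

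The first promoters shown are those of Cxcl1, Cxcl2 and Cxcl3, which encode CXCR2 ligands that attract neutrophils. They carry the same NF-kappaB match, but only Cxcl2 had a site in its promoter. Capitals mark matches on either strand to NF-kappaB (GGG and TTCC with any 3 bases between them), the interferon-stimulated response element (GAAA, any 2 bases and GAAA again) and AP-1 (TGANTCA), and matches on the strand of the gene to the TATA box (TATAAA). Matches that overlap are joined. The sequences are RefSeq promoters of GRCm38.p6, 5′ to 3′ on the strand of the gene, cut to the bases before the TSS, at chr5:90890995-90891240, chr5:90903649-90903870 and chr5:90785851-90786100, all on the plus strand.
Cxcl1: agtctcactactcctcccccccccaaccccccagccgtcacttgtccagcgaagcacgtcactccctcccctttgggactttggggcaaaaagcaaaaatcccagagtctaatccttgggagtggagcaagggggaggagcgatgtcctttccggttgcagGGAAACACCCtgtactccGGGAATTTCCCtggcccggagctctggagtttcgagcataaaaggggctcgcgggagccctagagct
Cxcl2: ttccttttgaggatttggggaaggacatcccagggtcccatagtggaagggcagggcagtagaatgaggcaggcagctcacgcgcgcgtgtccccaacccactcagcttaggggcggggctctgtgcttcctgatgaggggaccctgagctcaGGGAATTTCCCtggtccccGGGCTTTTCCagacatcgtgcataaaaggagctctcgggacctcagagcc
Cxcl3: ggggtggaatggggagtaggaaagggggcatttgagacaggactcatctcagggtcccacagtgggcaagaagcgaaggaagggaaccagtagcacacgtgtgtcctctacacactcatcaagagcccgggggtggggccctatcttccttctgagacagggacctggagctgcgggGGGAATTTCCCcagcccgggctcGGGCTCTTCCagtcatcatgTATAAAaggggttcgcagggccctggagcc

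The pair of platelet genes, which lie next to each other, is shown because Ppbp had a site over its TSS and Pf4 had none. Their promoters are at chr5:90768268-90768517 and chr5:90772185-90772434 on the plus strand. Cxcl10, whose product attracts T cells through CXCR3, is shown at chr5:92348890-92349139 on the minus strand because it was the member with NF-kappaB, interferon and AP-1 matches together. Capitals are as above.
Ppbp: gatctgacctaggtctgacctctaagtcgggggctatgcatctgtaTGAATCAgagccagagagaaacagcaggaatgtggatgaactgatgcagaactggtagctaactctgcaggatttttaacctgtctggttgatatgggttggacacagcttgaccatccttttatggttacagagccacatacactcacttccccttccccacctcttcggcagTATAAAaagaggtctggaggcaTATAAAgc
Pf4: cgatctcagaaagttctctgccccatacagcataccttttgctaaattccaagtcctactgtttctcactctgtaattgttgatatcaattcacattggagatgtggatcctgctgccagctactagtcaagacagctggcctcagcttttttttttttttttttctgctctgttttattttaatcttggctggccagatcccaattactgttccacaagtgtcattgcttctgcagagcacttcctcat
Cxcl10: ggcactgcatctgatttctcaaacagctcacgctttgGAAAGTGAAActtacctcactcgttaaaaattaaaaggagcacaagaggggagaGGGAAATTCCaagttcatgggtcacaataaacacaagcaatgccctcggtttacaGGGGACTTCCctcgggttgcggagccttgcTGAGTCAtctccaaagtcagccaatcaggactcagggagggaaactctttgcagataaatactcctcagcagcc

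The last sequence is a whole site, the 200 bp site upstream of Ccl22 at chr8:94745007-94745206 on the plus strand. Its width of 200 bp is the smallest in the table. It held none of the 4 motifs that capitals mark.
Ccl22 site: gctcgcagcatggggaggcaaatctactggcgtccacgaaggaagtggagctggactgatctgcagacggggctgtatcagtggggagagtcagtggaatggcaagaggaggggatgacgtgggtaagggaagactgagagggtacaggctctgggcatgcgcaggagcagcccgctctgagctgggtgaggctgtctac

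Of the 39 promoters, 22 or 56.4% (95% Wilson interval 41.0 to 70.7%) overlapped a site, against 63.9% of all protein-coding promoters. The interval covers the counting of genes alone, and genes of a cluster are not independent. The TSS itself was covered in 15 of 39 genes (38.5%), against 39.5%. This nearness to the background depended on the setting. With sites within 1 kb of each other merged it was 16 of 39, against 52.6%. For any annotated TSS it was 16 of 39, against 54.2%, and with sites of at least 500 bp only 12 of 39, against 37.6%. A site lay in the gene body of 24 of 39 (61.5%), against 72.8%. With the promoter window left out of the gene span, 16 of 39 had one, against 66.2%. Chemokine genes are short, with a median length of 3122 bp beside 17425 bp, and among genes of at most 10 kb a site lay in the body of 18 of 33 (54.5%), against 49.5%, and in the promoter of 18 of 33, against 46.3%. The counts of promoter and body sites thus lay on either side of the background depending on whether gene length was matched. At least 1000 bp of the promoter were inside sites in 11 of 39 genes (28.2%), against 44.7%. Among genes of at most 10 kb this count stayed below the background, with 7 of 33 (21.2%) against 32.2%.

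The promoters differed from most others in their CpG content. A CpG island lay within 1 kb of the TSS in 6 of 39 chemokine genes (15.4%), beside 53.8% of all protein-coding genes. The 6 were Cxcl12, Cxcl14, Cxcl16, Ccl25, Ccl27a and Cx3cl1, and each of them had a site, beside 93.0% of all island promoters. Of the 33 promoters without an island, 16 (48.5%, 32.5 to 64.8%) had a site, and the share over all promoters without an island was 30.0%. No test was run on these shares.

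**Figure D1:**
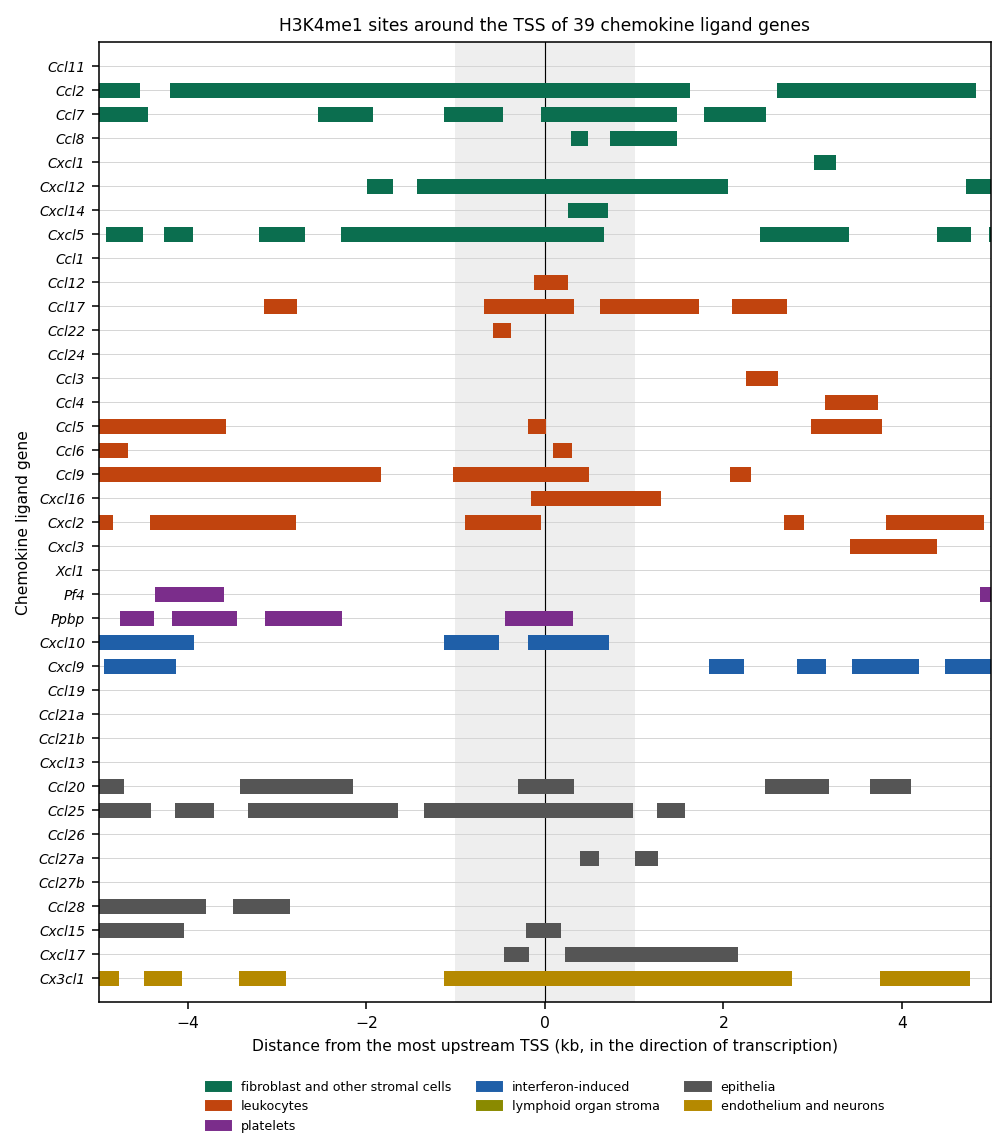
H3K4me1 sites (bars) within 5 kb of the most upstream TSS of each of the 39 chemokine ligand genes (rows), with distance in kb in the direction of transcription and colours for the main source of the chemokine. The grey band is the ± 1 kb promoter, in which 22 rows have a bar, and bars of Ccl2, Cxcl12 and Cx3cl1 fill it.

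The genes were grouped by the cells that are best known to make each chemokine. In the group of fibroblasts and other stromal cells, 6 of 8 promoters had a site (95% Wilson interval 40.9 to 92.9%). The share over all protein-coding promoters was 63.9%. Ccl2 encodes the main ligand of CCR2 on monocytes, and a single site of 5824 bp ran from 4198 bp upstream to 1625 bp downstream of its TSS (chr11:82031373-82037196), over all 2001 bp of the promoter and 86.4% of the gene. This site was the widest in a chemokine promoter, and it also overlapped the neighbouring gene Gm17268. Cxcl12, the ligand of CXCR4 that retains stem cells in the bone marrow, lay under a site of 3484 bp (chr6:117167100-117170583) that likewise filled its promoter, and 3 further sites lay in its body.

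Cxcl5, a CXCR2 ligand, had a site of 2957 bp from 2290 bp upstream to 666 bp downstream of the TSS. Ccl7, a monocyte chemoattractant, had a site of 662 bp upstream and a site of 1527 bp that began 47 bp upstream of the TSS, and 1581 bp of its promoter were covered. The 2 remaining genes with a site in this group had less of it. Ccl8, another monocyte chemoattractant, had 476 bp covered by 2 sites that began 288 bp and 725 bp downstream of the TSS and were centred in introns, and Cxcl14, a chemokine of skin and stroma, had 446 bp covered by a site that began 262 bp downstream. None of these sites reached the TSS.

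Ccl11 and Cxcl1 had no site in the promoter, although fibroblasts are known to make both. Ccl11 encodes eotaxin, a CCR3 ligand that attracts eosinophils. Its nearest site lay 5472 bp upstream of the TSS, and its gene body had none. For Cxcl1 the nearest site was a narrow one of 239 bp that began 3020 bp downstream of the TSS, beyond the end of the gene. For these 2 genes every 75-base word of the promoter occurred once on the chromosomes, so that reads of this length could be placed there.

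Among chemokines of leukocytes, 8 of 14 promoters had a site (57.1%), and of the platelet pair 1 of 2, which gives 9 of 16 together (56.2%, 33.2 to 76.9%). The intervals of the groups overlapped, and the 63.9% of all protein-coding promoters lay inside each of them. The groups lay further apart in how much of the promoter was covered. The median was 1028 bp of 2001 bp in the fibroblast group and 200 bp in the leukocyte and platelet group, with ranges that overlapped, beside 877 bp for all protein-coding genes. At least 1000 bp were covered in 4 of 8 promoters and in 3 of 16, beside 44.7% of all, so that the fibroblast group lay near this share. Among promoters without an island, it was 3 of 6 (50.0%) and 2 of 15 (13.3%), beside 14.2% of all such promoters. There the leukocyte and platelet group lay near the background and the fibroblast group above it, with few genes. With narrower sites than 500 bp left out, 5 of 8 and 5 of 16 promoters still had a site, beside 59.6% of all protein-coding promoters. These are counts over few genes, several of which share a cluster, and the difference between the groups was not tested.

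**Figure D2:**
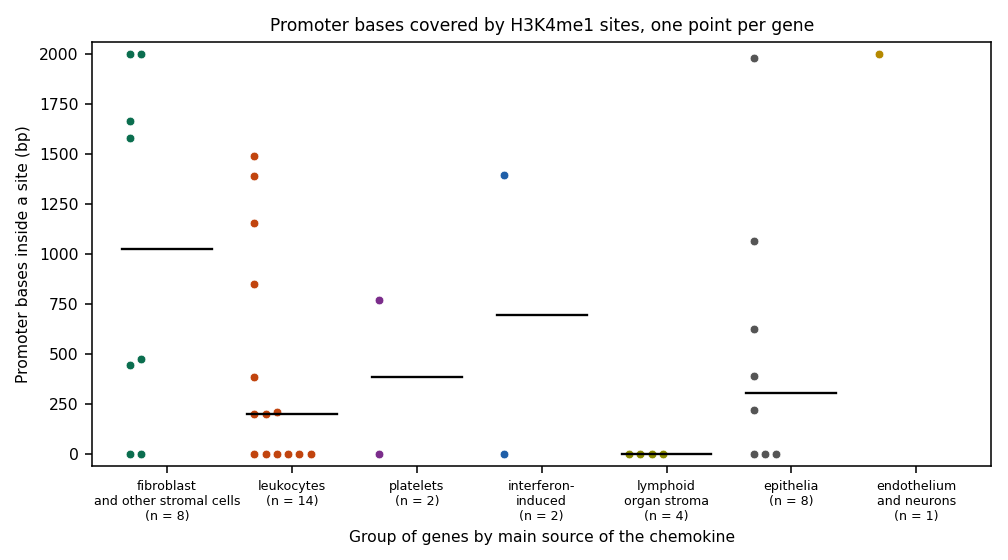
Bases of the 2001 bp promoter that lay inside an H3K4me1 site, with a point for each chemokine ligand gene, by the main source of the chemokine; black lines are medians of groups with more than 1 gene. Points of the fibroblast group reach 2001 bp and their median is 1028 bp, while the leukocyte median is 200 bp and all 4 lymphoid stroma genes are at 0.

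The leukocyte genes with the most promoter bases inside sites were Ccl9 with 1490 bp, Ccl17 with 1393 bp and Cxcl16 with 1157 bp. Ccl9 is a macrophage chemokine of rodents, and its site of 1516 bp covered the TSS. Ccl17 encodes a CCR4 ligand of dendritic cells, and its sites of 1014 bp and 1100 bp lay over the TSS and in the gene. The promoter of Cxcl16, a membrane-bound ligand of CXCR6, lies within 1 kb of the TSS of Zmynd15, so its site of 1461 bp cannot be assigned to either gene.

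Several other leukocyte genes had narrow sites. The site of Ccl5, which encodes a chemokine made by T cells, was 200 bp wide, from 191 bp upstream to 8 bp downstream of the TSS. Ccl22, which encodes the second CCR4 ligand, had the 200 bp site shown above, from 583 bp to 384 bp upstream. Ccl6 had a site of 212 bp within its first 303 bp, and Ccl12 a site of 387 bp over its TSS. In 4 of the 22 promoters with a site, namely those of Ccl5, Ccl6, Ccl22 and Ccl27a, no site was wider than 300 bp. The median width of the 27 sites in chemokine promoters was 769 bp, beside 1241 bp for sites in promoters of all protein-coding genes. It was 1140 bp for 8 sites of the fibroblast group and 810 bp for 10 sites of the leukocyte and platelet group.

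The leukocyte genes without a promoter site were Ccl1, Ccl3, Ccl4, Ccl24, Cxcl3 and Xcl1. Ccl3 and Ccl4, which encode inflammatory chemokines of macrophages, had their nearest sites 2255 bp and 3139 bp downstream of the TSS, in both cases beyond the gene. The nearest site of Cxcl3 began 3414 bp downstream, at the end of the gene. Xcl1, a chemokine of natural killer and T cells, was 8522 bp from a site, and Ccl24, a CCR3 ligand, 22868 bp. The most upstream transcript of Ccl1, a CCR8 ligand, begins 125878 bp before its coding transcript. From the TSS of the coding transcript the nearest site was 3304 bp away, so that Ccl1 had no promoter site with either start.

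Of the platelet genes, Ppbp, whose protein is cut to CXCR2 ligands that are stored in alpha granules, had a site of 769 bp from 450 bp upstream to 318 bp downstream of its TSS. Pf4, which encodes platelet factor 4, had no site in the promoter or the body, and its nearest site, the one over Ppbp, ended 3599 bp upstream. Between these genes, 2.37 kb held no site.

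Of the 2 CXCR3 ligands induced by interferon, Cxcl10 had 2 sites in the promoter, of 909 bp over the TSS and of 620 bp upstream, and 1395 bp covered. Both sites also overlapped Art3. Cxcl9 had none in the promoter, but 4 sites in the body covered 52.4% of the gene, and the nearest began 1835 bp downstream of the TSS. With a promoter of 2 kb to either side, Cxcl9 was the member that gained a site. In this setting 23 of 39 promoters had one, beside 66.7% of all protein-coding promoters.

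None of the 4 genes of lymphoid organ stroma had a site in the promoter or the body. Ccl19, Ccl21a and Ccl21b encode CCR7 ligands that guide T and dendritic cells to lymph nodes, and Cxcl13 the CXCR5 ligand that guides B cells. Cxcl13 lay 6096 bp from a site. The 3 CCR7 ligands lay between 143328 bp and 473532 bp from a site, in a region of chromosome 4 in which much of the sequence is repeated. The largest of these distances is that of Ccl21b at its GENCODE position, and RefSeq places this gene at another copy in the region. Of the 75-base words in their promoters, 39.5% in Ccl19, 32.7% in Ccl21a and 0% in Ccl21b occurred once on the chromosomes, and the same was 0% for Ccl27b and 58.5% for Ccl27a. In the other 34 genes it was at least 87.6%. The absence of sites at these genes therefore cannot be told apart from reads that could not be placed. Without Ccl19, Ccl21a, Ccl21b and Ccl27b, 22 of 35 promoters had a site (62.9%), beside 63.9% of all protein-coding promoters. This leaves out only genes that had no site. With Ccl27a, which had one, left out as well, it was 21 of 34, a setting added after the data were seen.

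Of the chemokines of epithelia, 5 of 8 promoters had a site, beside 63.9% of all protein-coding promoters. Ccl25, a CCR9 ligand of thymus and gut, had the widest, with 2344 bp from 1361 bp upstream to 982 bp downstream of the TSS, but the TSS of Elavl1, an RNA-binding protein, lies within 1 kb. Cxcl17 had sites of 291 bp and 1934 bp, Ccl20, a CCR6 ligand, a site of 625 bp over the TSS, and Cxcl15, a chemokine of lung epithelium, a site of 393 bp over the TSS. Ccl27a had a site of 219 bp in an exon 393 bp downstream of the TSS. Ccl26, Ccl27b and Ccl28 had none in the promoter, and the nearest site of Ccl28, a mucosal CCR10 ligand, lay 2854 bp upstream.

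Cx3cl1, a membrane-bound chemokine of endothelium and neurons, was among the genes with the most coverage. A site of 3902 bp (chr8:94770874-94774775) filled its promoter, and its 4 body sites covered 63.7% of the gene. By family, 12 of 23 promoters of CC ligands (52.2%) and 9 of 14 of CXC ligands (64.3%) had a site, with intervals of 33.0 to 70.8% and 38.8 to 83.7%. Both intervals held the 63.9% of all protein-coding promoters.

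The median distance from the TSS to the nearest edge of a site was 288 bp, with a 95% interval of 0 to 3020 bp from the order of the 39 values, beside 108 bp for all protein-coding genes. Of the 17 genes without a promoter site, 7 had the nearest site within 5 kb of the TSS and 5 at 5 to 30 kb. It lay farther away in 5, which were Ccl1 and the 4 genes in the repeated sequence of chromosome 4. Ccl1 was counted from its most upstream TSS, and from its coding TSS the nearest site was 3304 bp away. Within 50 kb to either side of the TSS, chemokine genes had a median of 19.0 sites, beside 9 for all protein-coding genes, and 13.6% of the bases were covered, beside 7.73%. In 30 of 39 genes this share lay above the median of all protein-coding genes. Neighbouring members share most of these windows, so that the 39 values are not independent.

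By position, 30 of the 39 genes fell into 7 clusters, in which neighbours lay at most 500 kb apart, and 9 lay alone. In clusters, 16 of 30 promoters had a site, and of those that lay alone 6 of 9, beside 63.9% of all protein-coding promoters. With flanks of 50 kb, the clusters spanned 2367 kb and held 219 sites, which covered 8.92% of their bases, beside 5.64% of all chromosomes. These windows lie around genes, and within 50 kb of a protein-coding TSS the median coverage was 7.73%. That value is a median over windows of single genes, while the cluster share pools bases, so they are unlike measures. Without flanks the clusters were covered over 6.27%. The value was not uniform. The chromosome 4 cluster from Ccl27a to Ccl21a (1105 kb) was covered over 1.35% and had a stretch of 1042 kb without a site. Of its 75-base words 12.6% occurred once, beside 87.5% to 99.2% in the other 6 clusters, and 4.53% of it was an assembly gap. Without this cluster, a setting chosen after its value was seen, 15.5% of the bases of the other 6 clusters were covered.

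**Figure D3:**
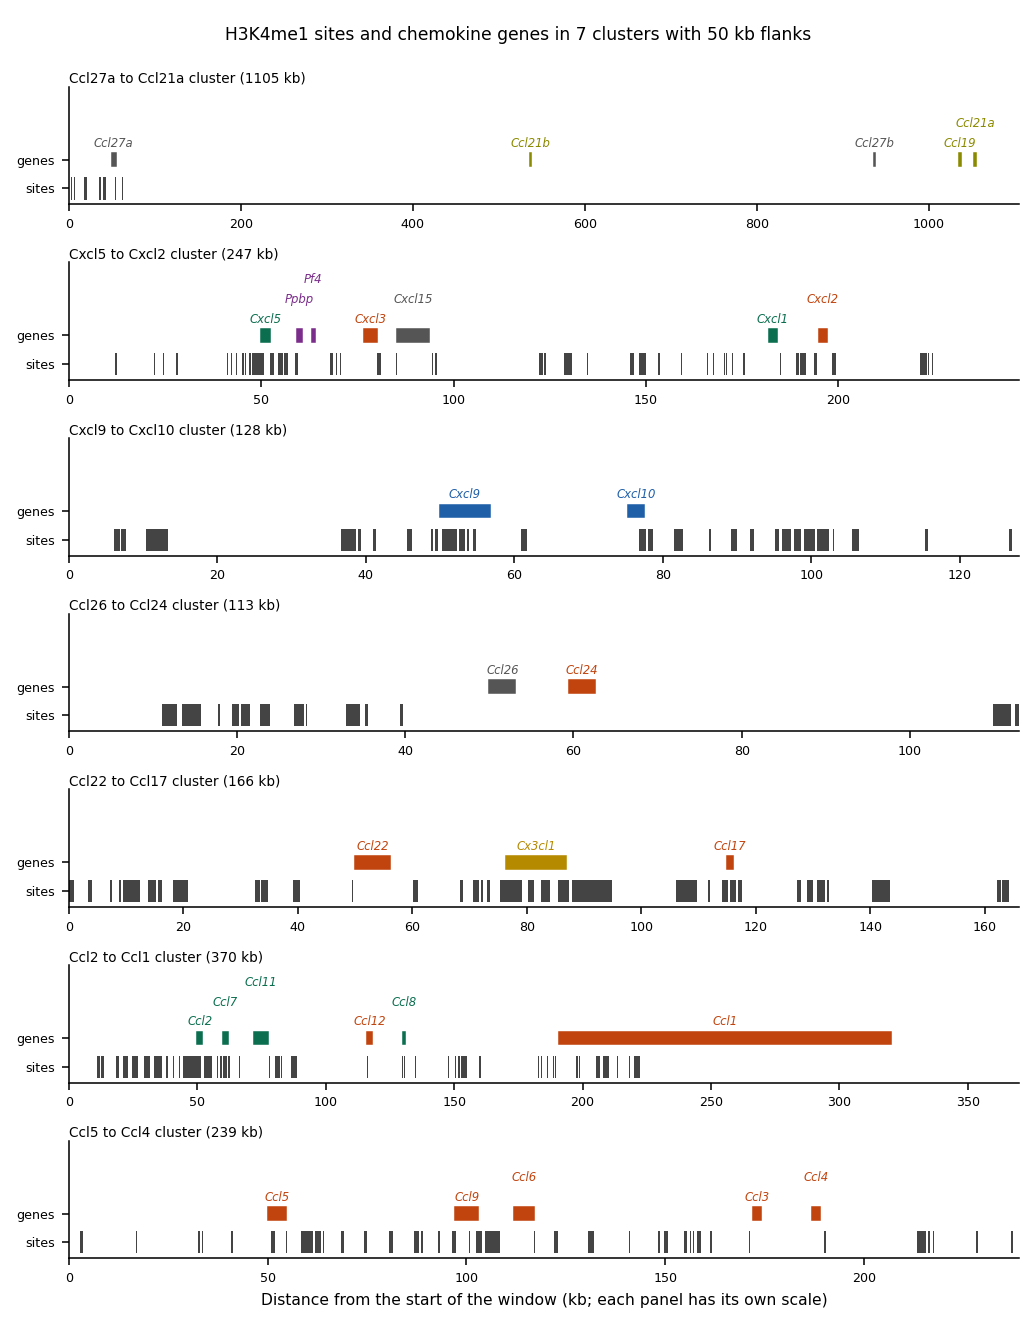
Maps of the 7 chemokine gene clusters with flanks of 50 kb, with distance from the start of each window in kb, chemokine genes as coloured bars (colours by main source) and H3K4me1 sites as dark bars. Sites stop near Ccl27a in the 1105 kb cluster, are spread over the 247 kb cluster of Cxcl5 to Cxcl2, and are absent between Ccl26 and Ccl24.

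The cluster from Ccl2 to Ccl1 on chromosome 11 (370 kb) holds the monocyte and eosinophil chemoattractants, in the order Ccl2, Ccl7, Ccl11, Ccl12, Ccl8 and Ccl1. It had 46 sites and a coverage of 13.3%. Between Ccl2 and Ccl7, 8.26 kb were covered over 50.0% by 5 sites, of which the widest measured 2229 bp. Coverage was 10.8% over the 10.3 kb from Ccl7 to Ccl11 and 13.4% over the 38.9 kb from Ccl11 to Ccl12. The 11.8 kb from Ccl12 to Ccl8 held no site. From position 82207812, inside the long Ccl1 transcript, 148 kb up to the end of the window were free of sites.

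The second cluster of chromosome 11, from Ccl5 to Ccl4 (239 kb), had 39 sites and a coverage of 13.1%. Between Ccl9 and Ccl6, which encode macrophage chemokines, 51.5% of 9.24 kb were covered, mostly by a site of 3731 bp. Over the 42.4 kb from Ccl5 to Ccl9, 11 sites covered 10592 bp. The 13.2 kb from Ccl3 to Ccl4 held none. Sites were thus dense beside Ccl9 and absent between the 2 genes of this cluster that lacked a promoter site.

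In the cluster from Cxcl5 to Cxcl2 on chromosome 5 (247 kb), which holds the CXCR2 ligands and the platelet genes, 47 sites covered 12.2%, with at most 26.5 kb between neighbouring sites. The 6.89 kb between Cxcl5 and Ppbp were covered over 49.6% by 5 sites. The 12.7 kb from Pf4 to Cxcl3 were covered over 9.86%. Between Cxcl1 and Cxcl2, 4 sites covered 32.3% of 10.8 kb, and the widest measured 1637 bp. The site nearest to the TSS of Cxcl1 was among these 4.

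The cluster of Ccl22, Cx3cl1 and Ccl17 on chromosome 8 (166 kb) had the highest coverage of the 7, with 28.4% from 34 sites, and all 3 promoters had a site. Between Cx3cl1 and Ccl17, 42.9% of 28.0 kb were covered, and the widest site of any of the 7 clusters, 6920 bp (from 94783568), lay there. The 128 kb around Cxcl9 and Cxcl10 were covered over 19.4% by 29 sites. In the cluster of Ccl26 and Ccl24 (113 kb) no site lay between the start of the first gene and the end of the last, and 70.1 kb were free of sites, while the flanks were covered over 13.4%. All flanks but those of the Ccl5 to Ccl4 cluster, with 6.77%, were covered over at least 9.70%.

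**Figure D4:**
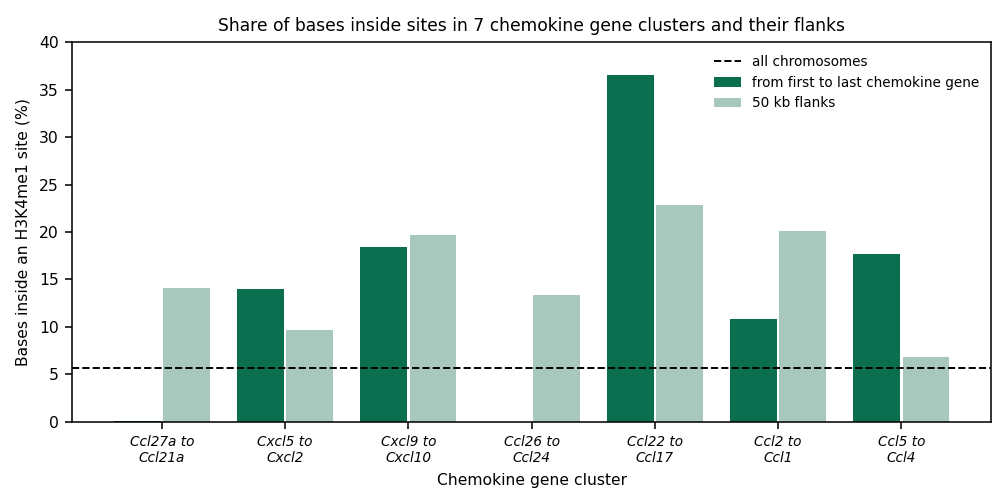
Share of bases inside H3K4me1 sites (%) from the first to the last chemokine gene of each cluster (dark bars) and in its 50 kb flanks (light bars), with the share over all chromosomes, 5.64%, as a dashed line. The inner share is 36.6% in the Ccl22 to Ccl17 cluster, 0% in the Ccl26 to Ccl24 cluster and 0.0855% in the Ccl27a to Ccl21a cluster.

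The clusters also hold genes that are no chemokines. In the 6 clusters outside chromosome 4, 12 of 15 other protein-coding genes had a promoter site, and all 9 of them with an island did. In the chromosome 4 cluster 4 of 24 had a site. The share over all protein-coding promoters was 63.9%, and over all island promoters 93.0%.

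Sequence motifs were counted from 250 bp before to 50 bp after the TSS, on both strands except for the TATA box. NF-kappaB matches were found in 9 of 39 chemokine promoters (23.1%), and 5.79% of all protein-coding promoters held one. Over 1 kb to either side of the TSS the counts lay closer together, with 13 of 39 beside 26.2%. The genes were Ccl2, Ccl5, Ccl9, Ccl20, Cxcl1, Cxcl2, Cxcl3, Cxcl5 and Cxcl10. Of them 7 were among the 22 promoters with a site and 2, Cxcl1 and Cxcl3, among the 17 without. Ccl1 was counted at its most upstream TSS and is not among these genes. The RefSeq promoter before its coding transcript, where no site lay either, also held an NF-kappaB match. By group, 3 of 8 fibroblast genes and 4 of 16 leukocyte and platelet genes held a match.

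A match of 11 bases, GGGAATTTCCC, which was singled out after the matches were seen, was found in 4 chemokine promoters (Cxcl1, Cxcl2, Cxcl3 and Cxcl5) of 7 among all 21938. These 4 genes lie in the cluster from Cxcl5 to Cxcl2, and genes of a cluster are not independent. The match of 11 bases holds 2 overlapping NF-kappaB matches, on opposite strands. In the Cxcl2 promoter it lay from 69 to 59 bp upstream of the TSS, inside the site, which ended 42 bp upstream. In Cxcl1 it lay from 67 to 57 bp and in Cxcl3 from 75 to 65 bp upstream, where no site was found. The promoter of Cxcl10 held NF-kappaB matches at 159 to 150 bp and 104 to 95 bp upstream, both inside its site over the TSS, and the interferon-stimulated response element at 213 to 204 bp upstream lay outside it.

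TATA boxes were found in 13 of 39 promoters (33.3%, beside 8.68%), AP-1 matches in 7 (17.9%, beside 6.91%) and interferon-stimulated response elements in 3 (7.69%, beside 3.55%). Over 1 kb to either side, interferon elements were found in 7 of 39, which lay below the 22.9% of all promoters. CCAAT was found in 10 (25.6%, beside 39.0%). TATA boxes were found in 7 of 22 promoters with a site and in 6 of 17 without. A match is a run of letters in a window and no evidence that a factor binds there.

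The genes through which chemokines act and are induced gave different counts. Of 23 chemokine receptor genes, 7 promoters had a site (30.4%, against 63.9% of all protein-coding genes). Only 2 of the 23 had an island, and 30.0% of all promoters without an island had a site. The 7 with a site included Cxcr4 and Ackr3, the receptors of Cxcl12, with 2001 bp and 1268 bp of the promoter covered. The others were Ccr1, Ccr9, Ccr10, Cxcr6 and Ccrl2. Ccr2, the receptor of Ccl2, was 32945 bp from a site, and Cxcr2, the receptor of Cxcl1 and Cxcl5, 1210 bp. Of 30 genes of NF-kappaB and interferon signalling all promoters had a site, and 24 of them had an island, beside 93.0% with a site among all island promoters. Nfkb1, Rel, Nfkbia and Irf1 had 2001 bp covered.

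Markers of cell types were counted in the same way to check the label. Of 15 fibroblast markers 14 promoters had a site, beside 63.9% of all protein-coding promoters, and Col3a1 had none. An island lay at 6 of these 15. Of leukocyte markers 3 of 11 (27.3%) had a site (Csf1r, Lyz2 and Cd68), with Ptprc, Cd3e, Itgam and Spi1 among those without. No leukocyte marker had an island, and the count lay near the 30.0% of all promoters without an island. Of platelet and megakaryocyte markers 1 of 8 had a site (Nfe2), of endothelial markers 3 of 6 and of epithelial markers 6 of 7. An island lay at 1 of 8, 1 of 6 and 4 of 7 of these. Such counts describe sites, not expression, and a site at an epithelial marker does not show that the gene is used.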

How the data were processed

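Chromatin of NG3 cells was immunoprecipitated for H3K4me1 in 12 libraries, and 2 inputs were sequenced. The authors trimmed the reads, aligned them to mm10 with BWA, merged the replicates and called broad peaks with Macs. The submitters' processing notes also name SAMtools, deepTools and DESeq2, and versions are not given in the sources used here. The deposited values are positions in bases, with starts counted from 0 and no normalization, as a single set over all samples. All coordinates printed here are counted from 1. Peaks found at only some time points cannot be recognised, and nearby peaks that the caller joins or splits change widths and counts.

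Genes came from GENCODE release M21 and sequence from GRCm38.p6. Of 160144 sites, 36 on scaffolds outside the chromosomes were left out. Cxcl11 is not protein-coding in this release and is therefore no member. For CpG islands each CpG of the repeat-masked sequence scored 17 and any other base -1, and runs longer than 200 bp with a GC content of 50% or more and an observed to expected CpG ratio above 0.6 were kept. Words of 75 bases that occur once on the chromosomes measured where a read can be placed. Promoter sequences came from the RefSeq table of GRCm38.p6, which held 29 of the 39 genes. Ccl11, Ccl2, Ccl7, Cxcl5, Ccl24, Ccl4, Ccl5, Cxcl16, Ccl26 and Cxcl17 were not in it. The functions were tested on simulated data. The software was Python 3.11.15, numba 0.67.0, numpy 2.4.6, matplotlib 3.10.9 and scipy 1.17.1.

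The genes, their groups by main source, the receptor, signalling and marker lists and the motifs were chosen with earlier results of these data known. Every member could be named. Alternatives concerned the promoter width, the TSS, the width, merging and overlap of sites, flanks and gaps of clusters, islands and motif windows. The membership of the source groups was also varied. With Cxcl2, Cxcl3, Cxcl10 and Cxcl16 added to the fibroblast group, 9 of 12 promoters had a site. Without Cxcl2, Cxcl3 and Cxcl16, 7 of 13 promoters of the leukocyte and platelet group had one, beside 63.9% of all protein-coding promoters.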

Additional observations from a re-analysis of the deposited data

How the results depend on the processing

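No paired analysis was possible because single libraries have no values in the pooled set, and for the same reason no replicate could be left out. Of 54 alternative settings over 15 results, 51 were planned and 3, those without the chromosome 4 cluster, were added after the data were seen. A count was taken as kept within 1.5 times its reported value, and a coverage or a median distance within the 95% interval of the reported value, which for coverage counts bases as independent and is narrow. By these rules 42 settings kept the value and 12 did not.

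With sites of at least 500 bp only, 5 of 16 leukocyte and platelet promoters had a site, the median distance from a chemokine TSS to a site was 3435 bp (148 bp over all protein-coding genes), and the clusters were covered over 7.64% (4.83% of all chromosomes). The 22 promoters with a site fell to 15 of 39 in this setting (59.6% of all protein-coding promoters), without Ccl5, Ccl6, Ccl12, Ccl22, Ccl27a, Cxcl14 and Cxcl15. The coverage of the clusters was 6.27% without flanks, 7.71% with flanks of 20 kb, 9.60% with flanks of 100 kb, 13.2% with at most 200 kb between neighbouring genes and 15.5% without the chromosome 4 cluster, each above the 5.64% of all chromosomes. With motifs counted over 1 kb to either side of the TSS, NF-kappaB matches were found in 13 of 39 promoters, beside 26.2% of all. Interferon-stimulated response elements were found in 7 (beside 22.9% of all) and AP-1 matches in 17 (beside 37.3%). TATA boxes were found in 23 (beside 41.5%) and CCAAT in 33 (beside 91.8%). The longer window holds more matches by construction. For the interferon element the share lay below that of all promoters here and above it in the shorter window.

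The depth is unknown, so a gene without a site may have had a signal too weak to be called. Groups of 2 to 16 genes limit every comparison between sources.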
